A study of Rattus norvegicus with 48 samples.

Results

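Transcripts of 60 genes whose products carry out mitosis and cytokinesis were followed in livers of rats given RDX, a nitramine explosive that blocks the GABA-A receptor and causes seizures at high doses. A gene counted as measured where a probe set of the array carried its symbol and no other, and 52 of the 60 genes were measured, among 14217 genes with such a probe set. The other 8 (Kif4a, Cdc25c, Nek2, Tpx2, Ndc80, Anln, Ckap2 and Ncapg) had no probe set with their symbol alone. The genes were chosen for their function, with earlier results of these data known, and each was represented by whichever of its probe sets was brightest on average in liver.

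Male Sprague-Dawley rats of 300 to 400 g took pure RDX once by mouth in a gel capsule, at 18 or 3 mg/kg, doses set below those that cause seizures. Liver and brain cortex were taken at 0, 4, 24 and 48 h in both dose arms. Each of the 16 groups of tissue, dose and time had 3 arrays, 48 arrays in all, hybridised with labelled RNA from whole tissue. No age, clock time or vehicle arm at 4, 24 or 48 h is given in the labels, so each later group was set against the 0 h arrays of its own dose and tissue. Nor do they say that a group's 3 arrays stand for 3 animals, and every p-value rests on the spread among arrays alone.

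A dividing cell builds up these transcripts late in its cycle and degrades or shuts them off after division. Cyclins B and A bring the kinase Cdk1 to its substrates, which starts mitosis. Kinetochore proteins then tie chromosomes to spindle microtubules, the spindle checkpoint delays the anaphase-promoting complex until all are attached, and centralspindlin and the GTPase regulators recruited to it pinch the cell in cytokinesis. Most hepatocytes of an adult rat are quiescent and return to the cycle when liver tissue is lost, and neurons of the cortex do not divide. In whole tissue, fewer cells of a type and less RNA per cell cannot be told apart.

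Values are the authors' deposited log2 signals, so 1 unit is a 2-fold difference. Tests were limma's moderated statistics, two-sided, fitted to all 24 arrays of a tissue, with Benjamini-Hochberg adjustment over 31042 probe sets and 0.05 as the threshold. Alb, serum albumin, averaged 14.31 ± 0.08 (SD, n = 24) in liver, and Snap25, a marker of cortical neurons, averaged 5.33 in liver and 13.25 in cortex. Alb ranged from 6.96 to 14.02 over cortex arrays, and was at 7.23, 13.93 and 14.02 in cortex at 48 h after 18 mg/kg. In liver, 3 mg/kg 0 h replicate 2 and 18 mg/kg 4 h replicate 1 had compressed values, with SDs of log2 values over all probe sets of 1.499 and 1.39, against 1.83 to 2.09 on the other liver arrays. Counts of passing genes that use those arrays are given with and without them.

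At 48 h after 18 mg/kg, mitosis and cytokinesis transcripts were lower in liver than at 0 h. Of the 52 measured genes, 24 fell and 0 rose, while limma called 0.0966% of all probe sets lower (30 of 31042). The median log2 change was -1.40 over the 52 genes and 0.005 over all probe sets, and all 52 changes lay below 0. In 49 of the 52 genes, each 48 h array lay below each 0 h array, which was so for 4.02% of all probe sets. Genes of the list supplied 25 of the 30 called probe sets. Ect2 and Mki67 (Ki-67) fell furthest, 7.39-fold and 6.03-fold.

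The mean of the 52 genes on each liver array ran from 7.12 to 7.63 at 0 h after 18 mg/kg, from 6.68 to 7.10 at 4 h (to 7.04 without the compressed array), from 6.27 to 6.80 at 24 h and from 5.61 to 6.06 at 48 h. Between 31 and 41 of the 52 genes lay below their array's median signal on the 48 h arrays, against 5 to 13 on the 0 h arrays. In the 3 mg/kg arm the same mean ran from 6.93 to 7.82 at 0 h, from 6.69 to 6.81 at 4 h, from 7.57 to 7.83 at 24 h and from 6.86 to 7.28 at 48 h. Cortex arrays of all groups lay between 5.51 and 5.74. Of the 52 genes, 48 had their lowest liver group mean at 48 h after 18 mg/kg, and 39 had their highest at 24 h after 3 mg/kg (48 and 40 without both compressed arrays). These means describe the arrays and carry no test.

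**Figure D1:**
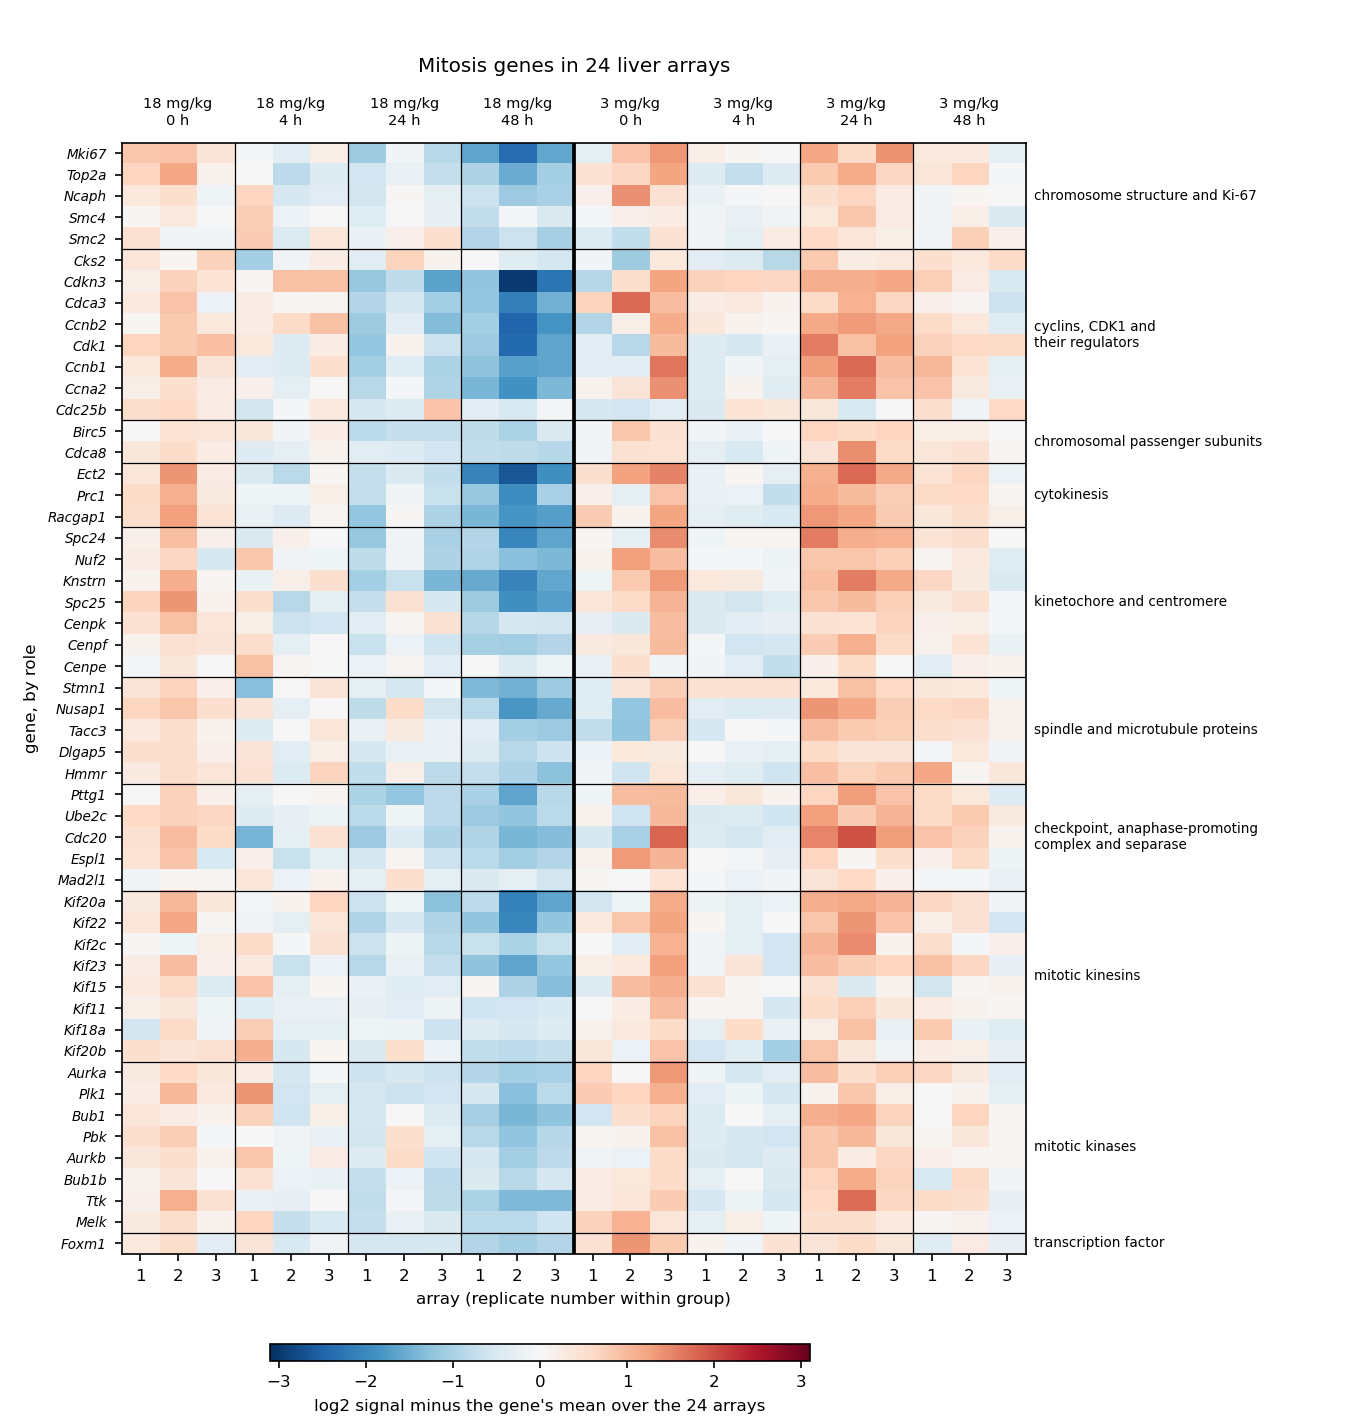
Level of each of the 52 measured genes (rows, grouped by role) on each of the 24 liver arrays (columns, by dose and time), as the log2 difference from that gene's mean over the 24 arrays, on a colour scale from -3.1 to 3.1. The 18 mg/kg columns move toward lower values over time and are lowest at 48 h, where all 52 genes had a mean below their 0 h mean.

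Many genes switched on late in the cell cycle carry CCAAT boxes, bound by the factor NF-Y, and a cell cycle homology region (the letters TTTGAA, or with one letter changed TTTAAA), bound by the DREAM and MuvB complexes. Promoter windows of 250 bases before to 50 after the transcript start were taken from RefSeq (build GRCr8), and 46 of the 52 genes had one. Each motif was searched on both strands. CCAAT was in 35 of the 46 windows (76.1%), against 37.5% of 33469 windows of all genes. The letters TTTGAA were in 30 (65.2%), against 18.3%, and TTTAAA in 13 (28.3%), against 13.6%. At least 1 of those 2 was in 39 windows (84.8%), against 28.3%, and 30 (65.2%) held both a CCAAT and a homology region motif, against 11.3%. Among the 11701 windows of genes measured on the array, 7.83% held both. A match is a string of letters and no shown binding site.

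The 160 bases from 150 before the start to 10 after it are printed for 8 of the genes that fell at 48 h after 18 mg/kg. Among genes with a window, these had the smallest limma p at 48 h against 0 h, and they were not chosen by role. Capitals mark the CCAAT box, which reads ATTGG where it lies on the opposite strand. They also mark the motif TTTGAA, which in that case reads TTCAAA, and the palindrome TTTAAA. All but Cdca3, which has CCAAT alone, hold both kinds in this stretch. In Mki67 the motif TTTGAA overlaps the reversed box ATTGG.

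Ect2, chr2:111966617-111966776, minus strand: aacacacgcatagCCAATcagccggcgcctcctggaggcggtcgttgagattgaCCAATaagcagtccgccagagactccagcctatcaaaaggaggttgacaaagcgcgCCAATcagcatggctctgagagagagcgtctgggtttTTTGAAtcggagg
Mki67, chr1:199952584-199952743, minus strand: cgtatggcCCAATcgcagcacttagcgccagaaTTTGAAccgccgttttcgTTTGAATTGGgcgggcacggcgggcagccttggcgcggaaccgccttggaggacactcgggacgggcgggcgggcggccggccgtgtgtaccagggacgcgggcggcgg
Prc1, chr1:143659331-143659490, plus strand: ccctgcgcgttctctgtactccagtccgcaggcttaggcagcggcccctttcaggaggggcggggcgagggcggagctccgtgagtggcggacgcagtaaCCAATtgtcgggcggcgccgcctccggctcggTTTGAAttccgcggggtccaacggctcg
Cdk1, chr20:19265143-19265302, plus strand: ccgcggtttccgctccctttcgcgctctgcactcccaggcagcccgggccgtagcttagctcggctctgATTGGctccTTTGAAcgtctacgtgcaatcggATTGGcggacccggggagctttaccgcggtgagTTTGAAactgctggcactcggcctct
Spc25, chr3:74396709-74396868, minus strand: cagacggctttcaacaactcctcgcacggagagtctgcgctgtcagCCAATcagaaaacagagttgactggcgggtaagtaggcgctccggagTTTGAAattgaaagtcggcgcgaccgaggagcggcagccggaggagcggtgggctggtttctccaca
Top2a, chr10:84473084-84473243, minus strand: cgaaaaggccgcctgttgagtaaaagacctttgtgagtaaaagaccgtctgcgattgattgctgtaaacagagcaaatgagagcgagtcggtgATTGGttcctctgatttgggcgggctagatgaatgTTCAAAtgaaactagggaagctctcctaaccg
Cdca3, chr4:159321053-159321212, plus strand: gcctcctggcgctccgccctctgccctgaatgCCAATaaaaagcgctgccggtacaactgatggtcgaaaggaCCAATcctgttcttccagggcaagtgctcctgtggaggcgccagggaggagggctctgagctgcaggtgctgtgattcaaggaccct
Kif22, chr1:191080869-191081028, minus strand: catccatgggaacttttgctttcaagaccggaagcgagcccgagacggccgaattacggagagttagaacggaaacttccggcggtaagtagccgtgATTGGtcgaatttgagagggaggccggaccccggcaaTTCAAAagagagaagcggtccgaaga

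Of the 8 measured cyclins and regulators of Cdk1, 6 fell, and the median log2 change was -2.04. Cdk1, the kinase that drives entry into mitosis, was at 6.11, 4.83 and 5.60 at 48 h after 18 mg/kg, against 7.89, 8.04 and 8.15 at 0 h. Its groups did not overlap, and the 48 h mean was 5.72-fold lower (log2 change -2.52 ± 0.38 SE, adjusted p = 0.0054). Ccnb1, a cyclin B that activates Cdk1, was at 5.86, 5.41 and 5.47 at 48 h after 18 mg/kg, against 7.42, 8.24 and 7.49 at 0 h. It was 4.41-fold lower (log2 change -2.14 ± 0.42 SE, adjusted p = 0.048), close to the threshold. Ccna2, the cyclin of S phase and early mitosis, was at 5.14, 4.67 and 5.16 at 48 h after 18 mg/kg, against 6.74, 7.09 and 6.83 at 0 h. All of its 48 h arrays lay more than 1 unit below all of its 0 h arrays, and it was 3.71-fold lower (log2 change -1.89 ± 0.33 SE, adjusted p = 0.015).

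Cdkn3, a phosphatase that removes the activating phosphate of CDKs, was at 7.30, 5.55 and 6.25 at 48 h after 18 mg/kg, against 8.69, 9.23 and 8.93 at 0 h. That made it 6-fold lower (log2 change -2.58 ± 0.44 SE, adjusted p = 0.013), the largest change of this group. Cdca3, a trigger of mitotic entry, was at 7.24, 6.33 and 6.96 at 48 h after 18 mg/kg, against 8.75, 9.33 and 8.26 at 0 h. It was 3.83-fold lower (log2 change -1.94 ± 0.30 SE, adjusted p = 0.0056), and Ccnb2, the other cyclin B, was 4.58-fold lower (log2 change -2.19 ± 0.41 SE, adjusted p = 0.034). Cks2, a small subunit that docks CDKs to substrates, was among the 2 that did not pass. It was at 8.81, 8.40 and 8.24 at 48 h after 18 mg/kg, against 9.17, 8.85 and 9.49 at 0 h, without overlap, and had a log2 change of -0.69 ± 0.34 SE (adjusted p = 1). Cdc25b, a phosphatase that activates Cdk1, had a log2 change of -0.75 ± 0.33 SE (adjusted p = 1).

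All 3 measured cytokinesis genes fell, with a median log2 change of -2.40. Ect2, the exchange factor that switches on RhoA at the division plane, was at 5.57, 4.99 and 5.74 at 48 h after 18 mg/kg, against 8.03, 9.01 and 7.91 at 0 h. The 48 h arrays lay more than 2 units below the 0 h arrays, and Ect2 was 7.39-fold lower (log2 change -2.88 ± 0.32 SE, adjusted p = 0.00015). Racgap1, the centralspindlin subunit that recruits Ect2, was at 5.61, 5.21 and 5.32 at 48 h after 18 mg/kg, against 7.58, 8.30 and 7.47 at 0 h. It was 5.28-fold lower (log2 change -2.40 ± 0.30 SE, adjusted p = 0.00061), again with no overlap. Prc1, which bundles the antiparallel microtubules of the spindle midzone, was at 6.002, 5.24 and 6.15 at 48 h after 18 mg/kg, against 7.74, 8.26 and 7.45 at 0 h. It was 4.06-fold lower (log2 change -2.02 ± 0.30 SE, adjusted p = 0.0047).

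Mki67 and Top2a fell among 5 genes of chromosome structure, and the median log2 change of the 5 was -1.17. Mki67, whose product Ki-67 coats mitotic chromosomes and is the usual stain for proliferating cells, was at 6.01, 5.29 and 6.03 at 48 h after 18 mg/kg, against 8.50, 8.55 and 8.05 at 0 h. No array of the groups overlapped, and Mki67 was 6.03-fold lower (log2 change -2.59 ± 0.34 SE, adjusted p = 0.0011). Top2a, the topoisomerase that untangles sister chromatids, was at 6.55, 5.96 and 6.45 at 48 h after 18 mg/kg, against 8.17, 8.70 and 7.63 at 0 h. It was 3.58-fold lower (log2 change -1.84 ± 0.28 SE, adjusted p = 0.0056). The condensin genes did not pass. Smc2 was at 5.74, 5.98 and 5.61 at 48 h after 18 mg/kg, against 7.13, 6.57 and 6.54 at 0 h, with a log2 change of -0.97 ± 0.32 SE (adjusted p = 1). Smc4 was at 5.96, 6.70 and 6.27 at 48 h after 18 mg/kg, against 6.76, 7.03 and 6.71 at 0 h, with a log2 change of -0.53 ± 0.25 SE (adjusted p = 1). Ncaph, the third condensin gene measured, had a log2 change of -1.17 ± 0.30 SE (adjusted p = 0.4).

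At the kinetochore, where chromosomes meet microtubules, 4 of 7 measured genes fell and the median log2 change was -1.33. Spc25, a subunit of the Ndc80 complex that grips microtubule ends, was at 6.17, 5.35 and 5.55 at 48 h after 18 mg/kg, against 7.95, 8.63 and 7.37 at 0 h. It was 4.91-fold lower (log2 change -2.30 ± 0.35 SE, adjusted p = 0.0054). Spc24, its partner subunit, was 3.81-fold lower (log2 change -1.93 ± 0.37 SE, adjusted p = 0.042). Knstrn, which joins the kinetochore to microtubule ends in anaphase, was at 6.05, 5.55 and 6.002 at 48 h after 18 mg/kg, against 7.72, 8.72 and 7.66 at 0 h. Its groups did not overlap, and it was 4.5-fold lower (log2 change -2.17 ± 0.35 SE, adjusted p = 0.0094). Cenpf, a large kinetochore protein of G2 and mitosis, was at 5.93, 5.88 and 6.06 at 48 h after 18 mg/kg, against 7.07, 7.43 and 7.36 at 0 h. It was 2.51-fold lower (log2 change -1.33 ± 0.25 SE, adjusted p = 0.035). Nuf2, another Ndc80 complex subunit, had a log2 change of -1.33 ± 0.32 SE (adjusted p = 0.27). Cenpe, the kinetochore kinesin, had a log2 change of -0.29 ± 0.26 SE (adjusted p = 1), and Cenpk, a subunit of the constitutive centromere network, a log2 change of -1.24 ± 0.30 SE (adjusted p = 0.26).

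The chromosomal passenger complex brings Aurora B to centromeres and later to the spindle midzone. Its subunit Birc5 (survivin) was at 6.11, 5.92 and 6.45 at 48 h after 18 mg/kg, against 6.89, 7.32 and 7.29 at 0 h, with a log2 change of -1.01 ± 0.21 SE (adjusted p = 0.079). The arrays did not overlap, yet the call was missed. Cdca8 (borealin), the other measured subunit, was at 5.98, 5.97 and 5.86 at 48 h after 18 mg/kg, against 7.10, 7.32 and 6.98 at 0 h. It was 2.29-fold lower (log2 change -1.19 ± 0.23 SE, adjusted p = 0.045).

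Of 8 measured mitotic kinases, 2 fell, and the median log2 change was -1.40. Ttk, the kinase at the head of the spindle checkpoint, was at 4.52, 4.14 and 4.14 at 48 h after 18 mg/kg, against 5.67, 6.60 and 5.96 at 0 h. It was 3.5-fold lower (log2 change -1.81 ± 0.31 SE, adjusted p = 0.013). Pbk, a kinase of mitotic cells, was at 5.16, 4.80 and 5.14 at 48 h after 18 mg/kg, against 6.52, 6.78 and 5.99 at 0 h and was 2.63-fold lower (log2 change -1.40 ± 0.27 SE, adjusted p = 0.045). Among those that did not pass, Plk1, which acts from centrosome maturation to cytokinesis, was at 6.42, 5.62 and 6.09 at 48 h after 18 mg/kg, against 7.17, 7.92 and 7.24 at 0 h, with a log2 change of -1.40 ± 0.35 SE (adjusted p = 0.39). Aurkb, the kinase of the passenger complex, was at 5.46, 4.89 and 5.16 at 48 h after 18 mg/kg, against 6.31, 6.48 and 6.07 at 0 h, with a log2 change of -1.12 ± 0.29 SE (adjusted p = 0.48). Bub1b, the checkpoint protein BubR1, was at 5.30, 4.90 and 5.24 at 48 h after 18 mg/kg, against 5.86, 6.16 and 5.75 at 0 h, with a log2 change of -0.78 ± 0.26 SE (adjusted p = 1). Their arrays did not overlap between 48 h and 0 h either. Aurka, the kinase of spindle poles, had a log2 change of -1.40 ± 0.28 SE (adjusted p = 0.053). Bub1, a checkpoint kinase at kinetochores, had a log2 change of -1.47 ± 0.32 SE (adjusted p = 0.1), and Melk, a kinase most active in mitosis, a log2 change of -1.07 ± 0.27 SE (adjusted p = 0.4).

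Kinesins move chromosomes and slide spindle microtubules, and 3 of 8 measured fell, with a median log2 change of -1.07. Kif22, which pushes chromosome arms toward the spindle equator, was at 6.12, 5.33 and 6.12 at 48 h after 18 mg/kg, against 7.73, 8.54 and 7.38 at 0 h. It was 4.08-fold lower (log2 change -2.03 ± 0.32 SE, adjusted p = 0.0062). Kif20a, which carries passenger proteins to the midzone, was at 7.18, 5.88 and 6.35 at 48 h after 18 mg/kg, against 8.26, 8.98 and 8.35 at 0 h. Although the spread at 48 h was wide, no array overlapped, and Kif20a was 4.16-fold lower (log2 change -2.06 ± 0.38 SE, adjusted p = 0.031). Kif23, the motor subunit of centralspindlin, was at 4.77, 4.39 and 4.82 at 48 h after 18 mg/kg, against 6.27, 6.97 and 6.18 at 0 h and was 3.51-fold lower (log2 change -1.81 ± 0.34 SE, adjusted p = 0.036). Kif11, which pushes the spindle poles apart, was at 5.26, 5.29 and 5.40 at 48 h after 18 mg/kg, against 6.06, 6.22 and 5.74 at 0 h. It had a log2 change of -0.69 ± 0.22 SE (adjusted p = 1). The other 4 kinesins (Kif2c, Kif15, Kif18a and Kif20b) had log2 changes of -0.81, -0.90, -0.41 and -1.24, and none of them passed.

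Among 5 spindle and microtubule genes, 2 fell, with a median log2 change of -1.39. Nusap1, which bundles microtubules near chromosomes, was at 6.54, 5.57 and 5.81 at 48 h after 18 mg/kg, against 8.03, 8.22 and 7.91 at 0 h. It was 4.24-fold lower (log2 change -2.08 ± 0.40 SE, adjusted p = 0.041). Stmn1 (stathmin), which destabilises microtubules and is also abundant in neurons, was at 8.08, 7.95 and 8.30 at 48 h after 18 mg/kg, against 9.84, 10.14 and 9.60 at 0 h and was 3.36-fold lower (log2 change -1.75 ± 0.33 SE, adjusted p = 0.036). Hmmr, which helps focus spindle poles, had a log2 change of -1.39 ± 0.32 SE (adjusted p = 0.2). Dlgap5, which stabilises kinetochore microtubules, had a log2 change of -1.04 ± 0.21 SE (adjusted p = 0.073), and Tacc3, which crosslinks them, a log2 change of -1.16 ± 0.35 SE (adjusted p = 1).

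Exit from mitosis is driven by the anaphase-promoting complex, and 1 of 5 genes around it fell. Ube2c, the ubiquitin-conjugating enzyme of the complex, was at 6.72, 6.64 and 7.002 at 48 h after 18 mg/kg, against 8.47, 8.56 and 8.49 at 0 h. It was 3.31-fold lower (log2 change -1.73 ± 0.28 SE, adjusted p = 0.0097). Pttg1 (securin), the inhibitor of separase, was at 6.87, 6.25 and 7.03 at 48 h after 18 mg/kg, against 7.88, 8.60 and 8.04 at 0 h, with a log2 change of -1.46 ± 0.30 SE (adjusted p = 0.073). Cdc20, the activator of the complex, was at 6.51, 6.02 and 6.10 at 48 h after 18 mg/kg, against 7.91, 8.39 and 8.02 at 0 h. The groups did not overlap, but the SE, which rests on the spread within all 8 liver groups, was wide, and Cdc20 had a log2 change of -1.90 ± 0.50 SE (adjusted p = 0.48). Mad2l1, a checkpoint protein that holds Cdc20, had a log2 change of -0.43 ± 0.21 SE (adjusted p = 1), and Espl1 (separase) a log2 change of -1.22 ± 0.33 SE (adjusted p = 0.59). Foxm1, the transcription factor that drives many of these genes in G2, was at 5.89, 5.75 and 5.89 at 48 h after 18 mg/kg, against 7.10, 7.35 and 6.46 at 0 h, with a log2 change of -1.13 ± 0.26 SE (adjusted p = 0.2).

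How many genes passed at 48 h depended on single arrays, while the direction did not. Leaving out an array in turn gave 3 to 17 lower genes: 12, 3 and 11 without 0 h replicate 1, 2 and 3, and 17, 3 and 11 without 48 h replicate 1, 2 and 3. No gene was called higher in any of these fits. Without both compressed liver arrays, which belong to other groups and enter here only through the shared spread, 36 genes fell, with the 24 among them. The actin 3' minus 5' gap, which grows as RNA degrades, was 3.44 to 3.67 on the 48 h arrays and 2.90 to 3.77 on the 0 h arrays, and 28 genes fell with the gap as a covariate.

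Of the 52 genes, 15 had more than 1 probe set, 19 further probe sets in all. At 48 h after 18 mg/kg, 16 of the 19 lay below 0 and 1 passed, that of Ccnb1 (log2 change -2.18, adjusted p = 0.0023). Those of Kif23, Tacc3 and Kif2c lay above 0, at 0.35, 0.13 and 0.10. The dimmer probe sets of Racgap1 and Top2a had log2 changes of -0.63 and -0.49, against -2.40 and -1.84 on their brightest. A probe set that carries both Ckap2, a spindle-stabilising protein gene, and its pseudogene Ckap2-ps3 was at 5.62, 4.99 and 5.73 at 48 h, against 8.34, 8.85 and 7.82 at 0 h. It was 7.42-fold lower (log2 change -2.89 ± 0.32 SE, adjusted p = 0.00015), but its signal cannot be assigned to either gene. A probe set shared by Anln, the cytokinesis scaffold anillin, and Anlnl1 had a log2 change of -0.36 ± 0.28 SE (adjusted p = 1).

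The earlier times after 18 mg/kg gave no call among the 52 genes. At 24 h against 0 h limma called 0 of the 52, against 0% of all probe sets, and 34 of the 52 had an unadjusted p under 0.05. The median log2 change was -0.84, 51 of the 52 changes lay below 0, and 35 genes did not overlap, against 4.21% of all probe sets. Racgap1 was at 5.84, 7.07 and 6.07 at 24 h, against 7.58, 8.30 and 7.47 at 0 h, a log2 change of -1.46 ± 0.30 SE (adjusted p = 0.58). Mki67 was at 6.54, 7.57 and 6.79 at 24 h, against 8.50, 8.55 and 8.05 at 0 h, and Cdk1 at 6.04, 7.33 and 6.56, against 7.89, 8.04 and 8.15. In both genes 24 h replicate 2 was the highest of its group by more than 0.7 units. At 4 h against 0 h, 0 genes passed against 0.0258% of all probe sets (12 at an unadjusted p under 0.05), and the median was -0.37. Without both compressed arrays, of which 4 h replicate 1 is in this comparison, the count was also 0 and the median -0.46. The 3 comparisons of this arm with 0 h share their 0 h arrays.

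Set against each other, neighbouring times after 18 mg/kg showed no passing gene. For 24 h against 4 h the median log2 change was -0.44, with 0 of 52 called against 0.00322% of all probe sets and 14 at an unadjusted p under 0.05. Without both compressed arrays it was -0.29, with 0 called. For 48 h against 24 h the median was -0.65, with 0 of 52 called against 0% of all probe sets and 26 at an unadjusted p under 0.05. There 51 genes lay below 0, and in 30 each 48 h array lay below each 24 h array, against 5.06% of all probe sets. The actin 3' minus 5' gap also did not overlap, at 3.44 to 3.67 at 48 h and 2.82 to 3.17 at 24 h. Mki67 was at 6.01, 5.29 and 6.03 at 48 h, against 6.54, 7.57 and 6.79 at 24 h and 7.60, 7.30 and 7.86 at 4 h. Ect2 was at 5.57, 4.99 and 5.74 at 48 h, against 6.90, 7.20 and 6.87 at 24 h and 7.20, 6.82 and 7.71 at 4 h. Both genes had all 48 h arrays below all arrays of the earlier times.

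**Figure D2:**
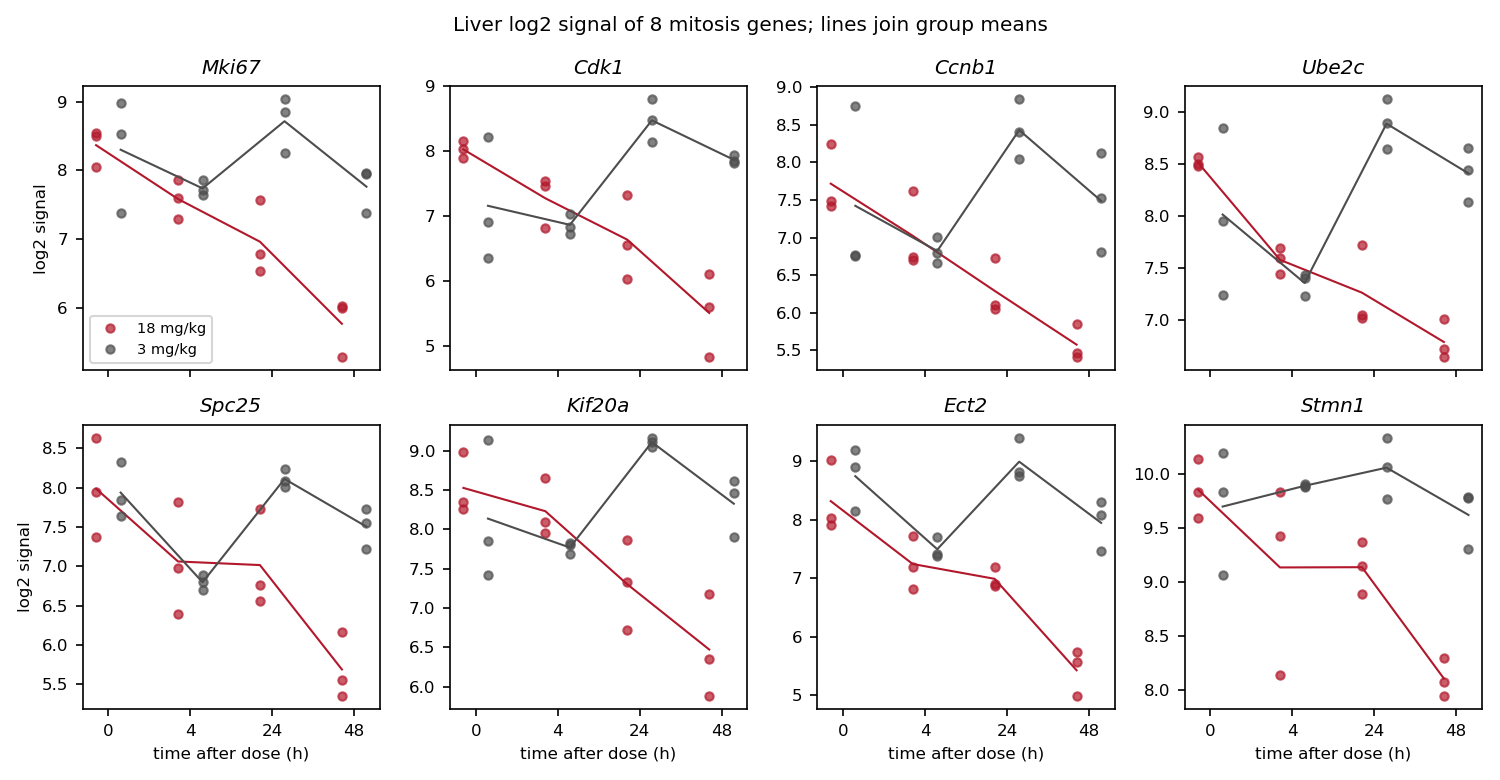
Log2 signal of 8 of the genes on each liver array (points) with group means (lines) at 0, 4, 24 and 48 h, drawn at even spacing, for 18 and 3 mg/kg. At 48 h the 18 mg/kg arrays of Ect2 lie at 4.99 to 5.74 and those of Mki67 at 5.29 to 6.03, below all other liver arrays of these genes.

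After 3 mg/kg the 52 genes had medians below 0 at 4 and 48 h and above 0 at 24 h, each against 0 h. At 4 h against 0 h, 0 of 52 passed, against 0.0226% of all probe sets, and 24 were at an unadjusted p under 0.05. The median log2 change was -0.56, against -0.08 for all probe sets, and 46 genes lay below 0. Without both compressed arrays, of which 0 h replicate 2 is in this comparison, the count was also 0 and the median -0.64. In 22 genes each 4 h array lay below each 0 h array, against 11.1% of all probe sets. Top2a came nearest, at 7.10, 6.79 and 7.10 at 4 h, against 7.96, 8.14 and 8.73 at 0 h, a log2 change of -1.28 ± 0.28 SE (adjusted p = 0.18). At 24 h against 0 h, 0 of 52 passed, against 0% of all probe sets, and 14 had an unadjusted p under 0.05. There the median was 0.38 and 44 genes lay above 0. Cdk1 was at 8.81, 8.14 and 8.49 at 24 h, against 6.91, 6.36 and 8.22 at 0 h, a log2 change of 1.31 ± 0.38 SE (adjusted p = 0.098). Tacc3 had a log2 change of 1.24 ± 0.35 SE (adjusted p = 0.093). Without 0 h replicate 3, 15 genes passed at 24 h, and without 0 h replicate 2, the compressed array, 0 did. Fits without 1 array of this comparison called up to 3777 of 31042 probe sets.

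At 48 h after 3 mg/kg, 2 of 52 genes fell and 0 rose, close to the 3.33% of all probe sets called lower, and the median log2 change was -0.21. Cdca3 was at 8.60, 8.53 and 7.82 at 48 h, against 9.13, 10.20 and 9.39 at 0 h, 2.39-fold lower (log2 change -1.26 ± 0.30 SE, adjusted p = 0.026). Foxm1 was at 6.41, 7.05 and 6.55 at 48 h, against 7.25, 8.18 and 7.61 at 0 h, 2.01-fold lower (log2 change -1.01 ± 0.26 SE, adjusted p = 0.029). Mki67 was at 7.96, 7.95 and 7.38 at 48 h, against 7.38, 8.53 and 8.98 at 0 h, and its groups overlapped. limma called 2898 probe sets in this comparison, whose 0 h group holds a compressed array. Neither gene passed without that array (0 h replicate 2), and 0 passed without any one of the 48 h arrays. Without 0 h replicate 3, 9 passed, 6 higher and 3 lower. Fits without 1 array of this comparison called up to 7764 of 31042 probe sets. The 9 can therefore not be read as particular to the 52 genes. The 3 comparisons of this arm with 0 h share their 0 h arrays.

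Set against 4 h, the 24 h group after 3 mg/kg uses neither the 0 h arrays nor a compressed array. The 52 genes had a median log2 change of 1.04, and in 46 of them each 24 h array lay above each 4 h array, against 7.13% of all probe sets. Yet 0 of the 52 passed, against 0.00966% of all probe sets, and 40 had an unadjusted p under 0.05. Ube2c was at 9.12, 8.64 and 8.89 at 24 h, against 7.40, 7.43 and 7.22 at 4 h, a log2 change of 1.53 ± 0.28 SE (adjusted p = 0.1). Of the 3 called probe sets, 1 was the dimmer one of Ccnb1, 4.03-fold higher (log2 change 2.01 ± 0.30 SE, adjusted p = 0.02). The others were of Per3, 4.66-fold lower (adjusted p = 0.00043), and Cxcl1, 4.34-fold lower (adjusted p = 0.021), neither among the 52. With both compressed arrays left out, 3 genes passed. At 48 h against 24 h, 0 of 52 passed, against 0% of all probe sets, and the median was -0.55 (23 at an unadjusted p under 0.05). There 50 genes lay below 0, and in 33 each 48 h array lay below each 24 h array, against 6.21% of all probe sets.

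**Figure D3:**
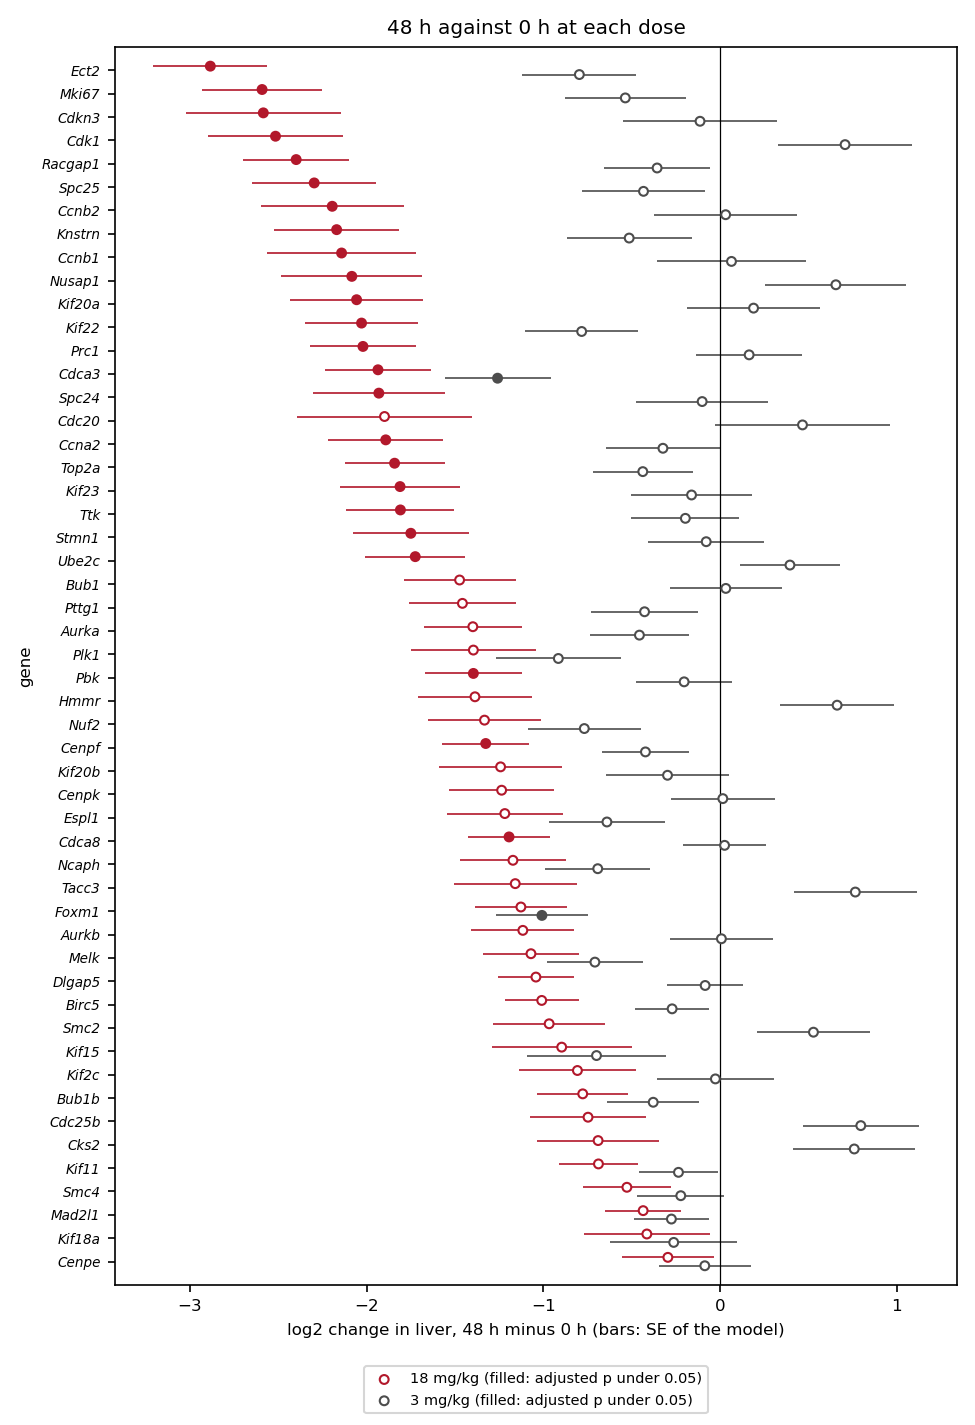
Log2 change from 0 h to 48 h in liver for each of the 52 genes, with its SE (lines), after 18 and after 3 mg/kg, with filled points at an adjusted p under 0.05. After 18 mg/kg all 52 changes lie below 0 with a median of -1.40, and after 3 mg/kg they spread around a median of -0.21 with 17 above 0.

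Dose was compared at matched times. At 24 h, 16 of 52 genes were lower after 18 than after 3 mg/kg and 0 were higher, while 0.0709% of all probe sets (22) were called lower. The median log2 difference was -1.34 over the 52 genes and -0.005 over all probe sets, 51 genes lay below 0, and 40 did not overlap, against 3.76% of all probe sets. By role, 4 cyclins and Cdk1 regulators (Ccna2, Cdkn3, Cdca3 and Ccnb2), 3 kinetochore genes (Knstrn, Spc24 and Cenpf) and 2 cytokinesis genes (Ect2 and Racgap1) were lower. Both passenger genes, Pttg1, Ube2c, Kif22, Bub1b and Mki67 made up the rest.

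Birc5 (survivin) was at 6.07, 6.19 and 6.17 after 18 mg/kg, against 7.57, 7.47 and 7.57 after 3 mg/kg at 24 h. It was 2.62-fold lower (log2 difference -1.39 ± 0.21 SE, adjusted p = 0.011), the smallest p among the brightest probe sets. Knstrn, the kinetochore protein, was at 6.56, 6.93 and 6.19 after 18 mg/kg, against 8.54, 9.21 and 8.77 after 3 mg/kg, and was 4.86-fold lower (log2 difference -2.28 ± 0.35 SE, adjusted p = 0.011). Pttg1 (securin) was at 6.91, 6.68 and 7.06 after 18 mg/kg, against 8.54, 9.17 and 8.75 after 3 mg/kg, and was 3.84-fold lower (log2 difference -1.94 ± 0.30 SE, adjusted p = 0.011). The arrays of these genes did not overlap between doses. Ect2 was at 6.90, 7.20 and 6.87 after 18 mg/kg, against 8.75, 9.40 and 8.81 after 3 mg/kg and was 4-fold lower (log2 difference -1.998 ± 0.32 SE, adjusted p = 0.016). Cdk1 was at 6.04, 7.33 and 6.56 after 18 mg/kg, against 8.81, 8.14 and 8.49 after 3 mg/kg, with a log2 difference of -1.84 ± 0.38 SE (adjusted p = 0.072). Dimmer probe sets of Ccnb1 (log2 difference -2.36, adjusted p = 0.0033) and Cdc20 (-1.72, adjusted p = 0.034) also passed, and 18 of the 52 genes were lower by at least 1 probe set. By the brightest probe sets, 25 genes passed without both compressed arrays. That count was 5, 0 and 0 without 3 mg/kg replicate 1, 2 and 3, and 0, 19 and 0 without 18 mg/kg replicate 1, 2 and 3.

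At 48 h, 7 of 52 genes were lower after 18 than after 3 mg/kg and 0 were higher, against 0.029% of all probe sets (9) called lower. All 52 differences lay below 0, with a median of -1.21 over the 52 genes and 0.012 over all probe sets. In 47 genes the doses did not overlap, against 6.79% of all probe sets. The actin 3' minus 5' gap did not overlap either. It was 3.44 to 3.67 on the 18 mg/kg arrays and 2.84 to 3.36 on the 3 mg/kg arrays. All 3 cytokinesis genes passed. Ect2 was at 5.57, 4.99 and 5.74 after 18 mg/kg, against 8.07, 8.30 and 7.46 after 3 mg/kg at 48 h and was 5.71-fold lower (log2 difference -2.51 ± 0.32 SE, adjusted p = 0.0015). Racgap1 was at 5.61, 5.21 and 5.32 after 18 mg/kg, against 7.40, 7.53 and 7.22 after 3 mg/kg and was 4-fold lower (log2 difference -1.999 ± 0.30 SE, adjusted p = 0.0081), and Prc1 was 3.47-fold lower (log2 difference -1.79 ± 0.30 SE, adjusted p = 0.027).

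Cdk1 was at 6.11, 4.83 and 5.60 after 18 mg/kg, against 7.94, 7.85 and 7.82 after 3 mg/kg at 48 h. The gap between the doses exceeded the spread within each, and Cdk1 was 5.13-fold lower (log2 difference -2.36 ± 0.38 SE, adjusted p = 0.02). Mki67 was at 6.01, 5.29 and 6.03 after 18 mg/kg, against 7.96, 7.95 and 7.38 after 3 mg/kg, and was 3.97-fold lower (log2 difference -1.99 ± 0.34 SE, adjusted p = 0.032). Ccna2 was 3.69-fold lower (log2 difference -1.88 ± 0.33 SE, adjusted p = 0.032), and Ube2c, the enzyme of the anaphase-promoting complex, 3.08-fold lower (log2 difference -1.62 ± 0.28 SE, adjusted p = 0.033). The Ckap2 probe set shared with its pseudogene was 6.51-fold lower (log2 difference -2.70 ± 0.32 SE, adjusted p = 0.00066). The 18 mg/kg arrays here are those of the 48 h against 0 h comparison, and all 7 genes had also fallen there. The dimmer probe set of Ccnb1 passed as well (log2 difference -2.06, adjusted p = 0.0081), which made 8 of the 52 genes lower by at least 1 probe set. By the brightest ones, 19 genes passed without both compressed arrays. That count was 1, 1 and 13 without 3 mg/kg replicate 1, 2 and 3, and 4, 1 and 1 without 18 mg/kg replicate 1, 2 and 3.

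No gene separated the doses at 0 or 4 h. At 0 h, 0 of 52 genes passed, against 0% of all probe sets, with a median log2 difference of 0.04 and 5 genes at an unadjusted p under 0.05. At 4 h, 0 of 52 passed, against 0% of all probe sets, with a median of 0.21 and 4 at an unadjusted p under 0.05. Both counts were also 0 without the compressed arrays, with medians of -0.05 and 0.08. Over both later times and the fall at 48 h, 27 of the 52 genes passed in at least 1 of the 3 comparisons, and 5 (Ccna2, Ect2, Mki67, Racgap1 and Ube2c) passed in all 3. Of all probe sets, 0.0709% and 0.029% were called lower between doses at 24 and 48 h, and 0.0966% in the fall. The fall and the dose comparison at 48 h use the same 18 mg/kg arrays, so passing in both is no independent repeat.

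Whether the time course itself differed between doses was tested with an F test over 3 contrasts, each the change from 0 h after 18 mg/kg minus that after 3 mg/kg. Cdk1 alone passed among the 52 (F = 17.7, adjusted p = 0.048), against 0.00966% of all probe sets, and 44 genes were at an unadjusted p under 0.05. The change of Cdk1 after 18 mg/kg minus that after 3 mg/kg was a log2 of -0.46 at 4 h, -2.70 at 24 h and -3.22 at 48 h. Ube2c came next (adjusted p = 0.061), then Racgap1 and Prc1 (adjusted p = 0.071 each). The 0 h arrays of Cdk1 were at 7.89, 8.04 and 8.15 in the 18 mg/kg arm, against 6.91, 6.36 and 8.22 in the 3 mg/kg arm, where they were spread more widely. Without both compressed arrays the count was 1, another gene than Cdk1. Without single arrays it ran from 0 to 23, the highest without 3 mg/kg 0 h replicate 3, with 5 without 18 mg/kg 24 h replicate 2 and 2 without 18 mg/kg 4 h replicate 2. An F test for any difference between the 8 liver groups passed for 28 of the 52 genes, against 0.213% of all probe sets, with Ect2 at the smallest adjusted p of 8e-05. It passed for 38 without both compressed arrays, and for 16 without 18 mg/kg 48 h replicate 2 or replicate 3.

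Genes of neighbouring cell cycle steps were counted beside the 52. Among 50 measured genes of a second mitosis list, 1 fell and 0 rose at 48 h after 18 mg/kg, with a median log2 change of -0.31 and 43 below 0. That gene was Kifc1, a kinesin that pulls spindle poles together, at -1.41 (adjusted p = 0.036). Of 40 genes of S phase and DNA replication 0 passed, with a median of -0.33 and 38 below 0. Mcm6, part of the replicative helicase, had the smallest p there, with a log2 change of -1.35 (adjusted p = 0.79). Of 21 genes of G1 phase and CDK inhibitors 0 passed, with a median of -0.06. At 24 h, the difference between doses had medians of -0.35 for the second mitosis list, in which Kifc1 again passed (-1.39, adjusted p = 0.037), and -0.04 for S phase. A dimmer probe set of Cenpw, a centromere protein of the second mitosis list, passed there too (-1.26, adjusted p = 0.039). At 48 h it had medians of -0.25 and -0.19, and 0 genes of these lists passed. Asf1b, a histone chaperone of S phase in none of the lists, was the other named gene that fell at 48 h after 18 mg/kg (log2 change -1.14, adjusted p = 0.042).

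Markers of the cell types of liver were followed in the same comparison, 48 h against 0 h after 18 mg/kg. None of the measured markers passed in 7 lists of liver cell types or in 3 of brain cells, and the medians of the 10 lists ran from -0.18 to 0.05 on the log2 scale. The summed signal of 10 hepatocyte markers was 106747 to 112508 at 48 h, against 100977 to 115906 at 0 h. That of 11 Kupffer cell and macrophage markers was 13613 to 13917, against 13729 to 17648, and that of 8 endothelial markers 5983 to 6531, against 6291 to 6734. For 13 T, B and NK cell markers it was 2512 to 2814, against 2484 to 3032, and for 7 erythroid markers 11319 to 12170, against 11777 to 12665. For 9 stellate cell and fibroblast markers it was 4750 to 6250, against 4817 to 6494, and for 5 cholangiocyte markers 584 to 742, against 688 to 747. The ranges overlapped in each of these lists. Such a sum is ruled by its brightest markers and can miss a change in dimmer ones. Alb, a hepatocyte marker, averaged 14.31 ± 0.08 (SD, n = 24) in liver. Which cells carried the mitosis transcripts was not tested.

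**Figure D4:**
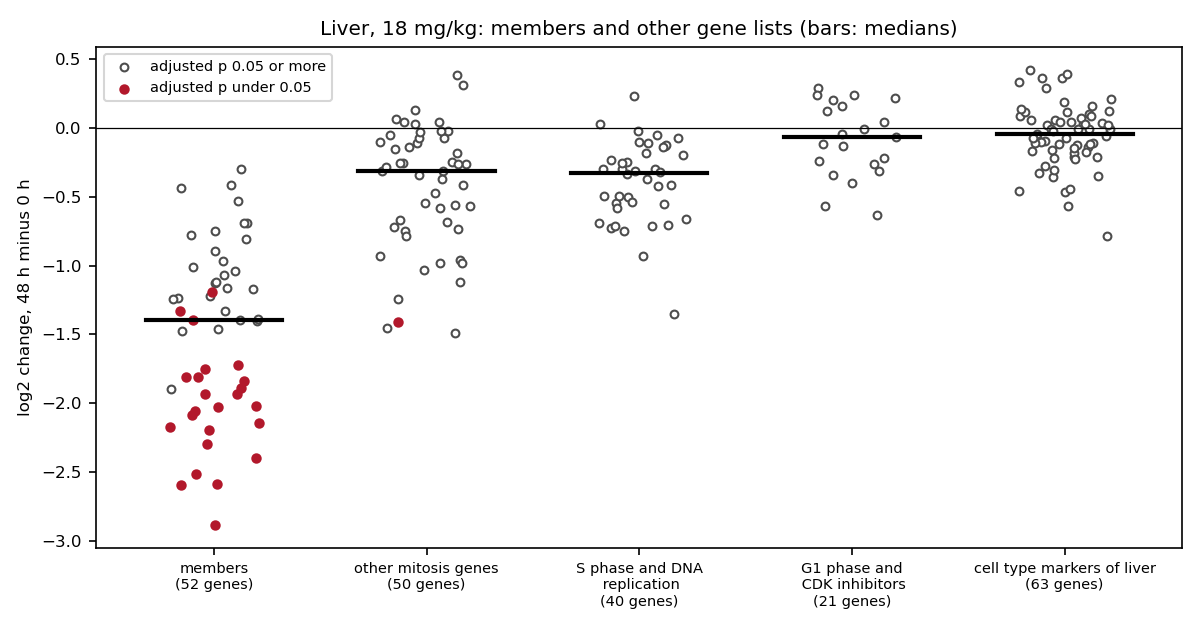
Log2 changes in liver, 48 h against 0 h after 18 mg/kg, for the 52 mitosis and cytokinesis genes (members), the 3 related lists and the pooled liver cell type markers. Points are genes, filled at an adjusted p under 0.05, and bars are medians, at -1.40 for the 52 genes, -0.31 for the second mitosis list and -0.33 for the S phase list.

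In cortex none of the 52 genes passed in any comparison. Between 42 and 47 of them lay below their array's median signal on the cortex arrays, where a fall could go unseen. In each of 6 comparisons with 0 h, 0 of 52 passed, with 3 to 8 genes at an unadjusted p under 0.05 and medians between -0.05 and 0.03. limma called 0.0741% of all probe sets at 24 h after 3 mg/kg and 0% in each of the other 5. The changes ran from -0.58 (Mad2l1 at 48 h after 18 mg/kg) to 0.80 (Mad2l1 at 24 h after 3 mg/kg). An F test for any difference between the 8 cortex groups passed for 0 of 52, against 0.00644% of all probe sets, and 8 had an unadjusted p under 0.05. With arrays weighted by their fit, 0 to 12 of 52 passed in the 6 comparisons and 15 in the F test. The estimation of these weights stopped before it converged. The alternatives that left out no single array called up to 5796 of 31042 probe sets at 48 h after 3 mg/kg, where 12 passed. In the F test they called up to 10626. The 12 and the 15 can therefore not be read as particular to the 52 genes. Mki67 in cortex was at 4.87, 4.72 and 4.96 at 48 h after 18 mg/kg, against 4.77, 4.85 and 4.98 at 0 h. Ect2 was at 4.68, 4.93 and 4.71 at 48 h, against 4.75, 4.99 and 4.75 at 0 h.

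The level itself was higher in liver than in cortex for most of the genes. Over all groups, 46 of 52 were higher and 3 lower in liver, against 54.5% of all probe sets called higher, and the median log2 difference was 1.38, against 0.26 for all probe sets. For the 15 genes with more than 1 probe set, the one used was picked as brightest in liver. That choice favours a higher value in liver, and all probe sets had no such choice. Without both compressed liver arrays 49 again passed in either direction. Cks2 averaged 8.79 in liver and 5.65 in cortex, 8.78-fold higher in liver. Mki67 averaged 7.65 in liver and 4.85 in cortex. Stmn1, the stathmin of neurons, differed in the opposite direction, with 9.44 in liver and 12.88 in cortex, 10.9-fold lower in liver. Cdc25b (log2 difference -0.88) and Smc2 (-0.62) were also lower in liver.

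Each liver group was also set against all cortex arrays, as a description and with the same choice of probe sets. At 0, 4, 24 and 48 h after 18 mg/kg, 44, 42, 35 and 20 of the 52 genes had all 3 liver arrays above all 24 cortex arrays, and the median log2 difference was 1.61, 1.34, 0.94 and 0.37. After 3 mg/kg the counts were 42, 41, 45 and 43 and the medians 1.74, 1.23, 2.04 and 1.504. Without the compressed array, 3 mg/kg at 0 h had 43 such genes and a median of 1.895, and 18 mg/kg at 4 h had 42 and 1.21. Mki67 at 48 h after 18 mg/kg still had its liver mean above the cortex mean, with liver arrays at 6.01, 5.29 and 6.03, against a cortex mean of 4.85.

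The change over time differed between tissues in an F test over 3 contrasts, each the change from 0 h in liver minus that in cortex. The fit pooled the spread of liver and cortex arrays per probe set, which can shrink the error set against a liver change. Over all groups of a tissue, Ect2 had an SD of 1.14 in liver and 0.135 in cortex. Arrays of both tissues were treated as independent, and whether they share animals is not known. After 18 mg/kg, 19 of 52 genes passed, against 0.129% of all probe sets, and 44 had an unadjusted p under 0.05. Ect2 had the smallest adjusted p (0.00023), with a liver change minus cortex change of -0.86 on the log2 scale at 4 h, -1.35 at 24 h and -2.83 at 48 h. Racgap1 (adjusted p = 0.0012) and Mki67 (adjusted p = 0.0026) followed. After 3 mg/kg, 0 of 52 passed, against 0.293% of all probe sets, and 33 had an unadjusted p under 0.05. The count after 18 mg/kg was 28 without both compressed liver arrays. It was 9 without liver 0 h replicate 2, 10 without liver 48 h replicate 2, 11 without cortex 48 h replicate 2 and 12 without cortex 0 h replicate 1 or replicate 3. After 3 mg/kg it was 5 without both compressed arrays and 22 without liver 0 h replicate 3.

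**Figure D5:**
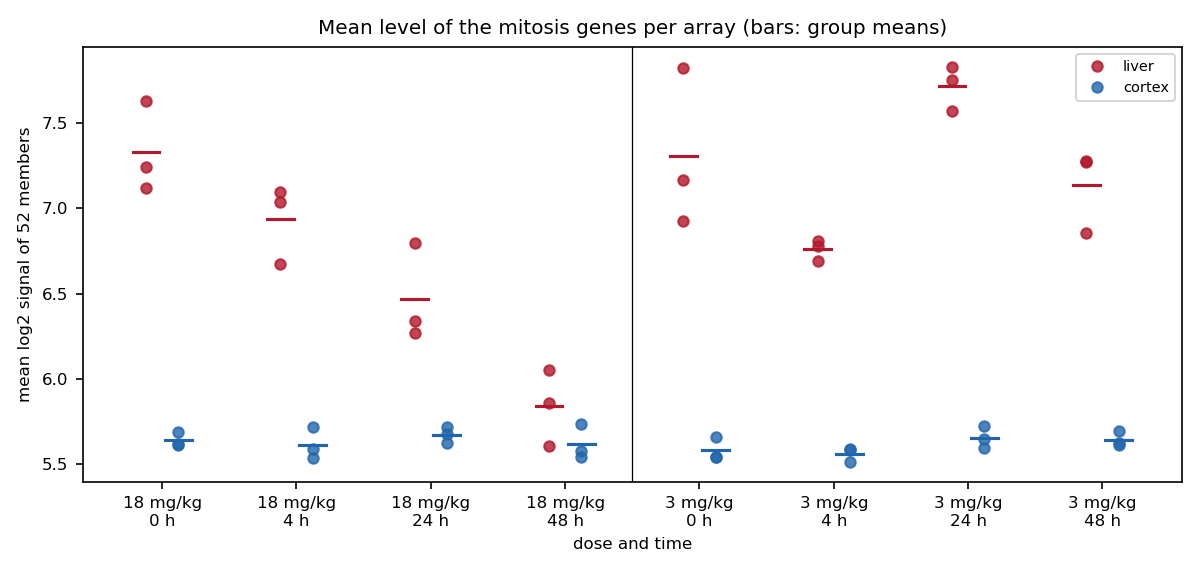
Mean log2 signal of the 52 genes (members) on each array (points, with bars at group means) in liver and in cortex, at 0, 4, 24 and 48 h after 18 and 3 mg/kg. Liver at 48 h after 18 mg/kg lies at 5.61 to 6.06, the lowest of the liver groups, and all cortex arrays lie between 5.51 and 5.74.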

How the data were processed

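RNA of 24 liver and 24 cortex samples was hybridised to Affymetrix whole-genome rat arrays. The authors deposited log2 values per probe set, made with RMA in Partek per the submitters' processing notes, which give no version. RMA normalizes arrays against each other and can shrink a shift common to most genes, yet the SD of log2 values over all probe sets still ran from 1.39 to 2.09 among liver arrays. The values were used without further scaling or a filter on dim probe sets. Arrays carry no count of molecules, so precision rests on how many arrays there are and on the spread among them.

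Of 31099 probe sets, 57 controls were left out and 31042 tested. The platform annotation gave 20826 of them 1 symbol, 436 several and 9780 none. Groups were taken from the sample labels. Each tissue was fitted in limma 3.58.1 (R 4.3.3) with 8 group means, and both tissues together with 16. P-values are two-sided and adjusted by Benjamini-Hochberg over all 31042 probe sets. The fit was checked on simulated data.

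The genes, the 3 related lists and the 10 cell type lists (7 of liver, 3 of brain) were chosen with earlier results of these data known. Values in every array were set down for fixed genes with at least 1 per role and for up to 3 passing genes per role with the smallest p, and of other lists for the passing genes or the gene with the smallest p. The text prints all of the fixed genes for 48 h against 0 h after 18 mg/kg and only some elsewhere. Asf1b and the Ckap2 and Anln probe sets were named after their values were seen. Alternatives were quantile normalization, median centring, a filter on dim probe sets, 1 probe set per gene, a replicate block, array weights, the actin 3' minus 5' gap in the model, no compressed arrays, and leaving out each array. Equal replicate numbers are not known to pair the samples. Deviations of arrays with the same number correlated between -0.515 and 0.61 in liver. For liver and cortex arrays of the same dose, time and number, the correlations lay between -0.102 and 0.204. With so few arrays per group, these correlations cannot settle whether samples were paired. No 2 arrays held identical values. RefSeq promoter windows (GRCr8) were matched by gene ID.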

Additional observations from a re-analysis of the deposited data

Results flagged for a closer look

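These values come from tests of a difference between 2 doses or 2 tissues. Between doses, the time course of Cdk1 in liver differed (F test over 3 contrasts, adjusted p = 0.048), with the change after 18 mg/kg below that after 3 mg/kg at each later time. That call was lost with quantile normalization, median centring, a filter on dim probe sets, 1 probe set per gene, the replicate block and the actin 3' minus 5' gap in the model, each of which left 0 of the 52 genes, and Cdk1 did not pass without both compressed arrays. With array weights, whose estimation stopped before it converged, 44 genes passed. Between tissues, the change over time after 18 mg/kg differed for 19 of the 52 genes (F test over 3 contrasts). The cytokinesis genes were Ect2 (adjusted p = 0.00023), Racgap1 (0.0012) and Prc1 (0.0084). The cyclins and Cdk1 regulators were Cdca3 and Cdkn3 (0.0053 each), Ccnb2 (0.01), Ccna2 (0.022) and Cdk1 (0.032). At the kinetochore and in the passenger complex they were Knstrn (0.0053), Spc25 and Cenpf (0.023 each) and Birc5 (0.019). Kif22 (0.0071), Kif20a (0.023), Ttk (0.022), Mki67 (0.0026), Top2a (0.017), Dlgap5 (0.036) and Hmmr (0.046) were the others. Hmmr, Dlgap5 and Birc5 had not passed in liver at 48 h against 0 h after 18 mg/kg. The tissue test pools the spread of liver arrays with that of cortex arrays, and the liver test does not. Cortex at 48 h after 18 mg/kg held arrays with Alb at 7.23, 13.93 and 14.02, against 9.94, 8.64 and 11.76 at 0 h. The part of liver RNA in these tissue differences was not tested.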

How the results depend on the processing

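Over 14 alternatives the median log2 change of the 52 genes stayed below 0 at 48 h against 0 h after 18 mg/kg (-1.73 to -1.26), and between doses at 24 h (-1.49 to -1.21) and at 48 h (-1.48 to -1.15). None of them called a gene higher there, and for single named genes 422 tests kept their side of the threshold, 260 lost it and 0 turned round. The counts moved, and the causes were not tested. With quantile normalization the count was 4 at 48 h after 3 mg/kg, 7 and 2 between doses at 24 and 48 h, 0 for dose by time and 1 for the tissue difference after 3 mg/kg. Centring gave 9 and 3 between doses at 24 and 48 h and 0 for dose by time. The filter on dim probe sets, which kept fewer genes, gave 0 for dose by time, 10 for the tissue difference after 18 mg/kg and 23 for liver against cortex, and 1 probe set per gene gave 0 for dose by time. The replicate block gave 15 at 48 h after 18 mg/kg, 3 between doses at 48 h and 0 for dose by time, and moved no other count by over 1.5 times. Same-numbered arrays are not known to be paired.

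Without both compressed arrays the counts were 1 at 48 h after 3 mg/kg, 3 for 24 h against 4 h after 3 mg/kg, 25 and 19 between doses at 24 and 48 h, and 5 for the tissue difference after 3 mg/kg. The gap covariate gave 10, 9 and 11 at 4, 24 and 48 h after 3 mg/kg, 3 between doses at 0 h, 44 for any liver difference, 0 for dose by time and 5 for the tissue difference after 3 mg/kg. Array weights, whose estimation stopped before it converged, gave 17, 27 and 14 at 4, 24 and 48 h after 3 mg/kg, the 14 reversed to 9 higher and 5 lower. They gave 13, 18 and 43 at 4, 24 and 48 h after 18 mg/kg, 33 for 24 h against 4 h after 3 mg/kg, and 4 and 2 for 24 h against 4 h and 48 h against 24 h after 18 mg/kg. Between doses they gave 17, 1, 35 and 38 at 0, 4, 24 and 48 h, and 47 for any liver difference and 44 for dose by time. In cortex they gave 6, 7 and 12 at 4, 24 and 48 h after 3 mg/kg, 10 and 6 at 4 and 48 h after 18 mg/kg, 15 for any difference, and 43 and 42 for the tissue difference after 3 and 18 mg/kg.

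Leaving out 1 array gave 0 to 1 gene at 4 h, 0 to 15 at 24 h and 0 to 9 at 48 h after 3 mg/kg, where the 9 reversed to mostly higher. It gave 3 to 17 at 48 h after 18 mg/kg, 0 to 6, 0 to 19 and 1 to 13 between doses at 0, 24 and 48 h, 16 to 40 for any liver difference and 0 to 23 for dose by time. In cortex it gave 0 to 1 at 48 h after 18 mg/kg and 0 to 4 for any difference. The tissue difference ran from 0 to 22 after 3 mg/kg and from 9 to 23 after 18 mg/kg, and liver against cortex from 49 to 49. Over all 31042 probe sets, these fits called up to 1809, 3777 and 7764 in liver at 4, 24 and 48 h after 3 mg/kg. They called up to 21 at 48 h after 18 mg/kg, and up to 4123, 28 and 15 between doses at 0, 24 and 48 h. The 9 at 48 h after 3 mg/kg and the 6 between doses at 0 h can therefore not be read as particular to the 52 genes.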
